A study of Mus musculus with 12 samples.

Results

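The transcripts described here come from satellite cells of young wild-type mice, isolated from hindlimb muscle 3 days after injury. Members were the libraries titled as young wild type, 3 of the 12 in the series, and no other group entered any value. The donors were C57BL/6 mice of 3 to 4 months, labelled wild type. Barium chloride, a muscle toxin, was given as 50 µl of a 1.2% solution spread over about 20 sites of the hindlimb muscles. Total RNA was extracted on magnetic beads and made into stranded libraries after removal of ribosomal RNA. The labels do not give the sort or enrichment, the sex, or whether a library came from 1 animal or from several, so the spread between the 3 libraries may be technical. No uninjured cells are among them, and no comparison between groups was made. The question was which transcripts take most of the reads and how far that order depends on the library.

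Satellite cells are the stem cells of skeletal muscle and lie between the myofibre and its basement membrane. At rest they carry the transcription factor Pax7. After injury they re-enter the cell cycle as myoblasts, which express Myf5 and Myod1, and a part of them then expresses Myog, leaves the cycle and fuses into new fibres. Myoblasts also secrete collagens, laminins and other matrix proteins of their niche. All of this is textbook background and not a result of these libraries.

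Reads counted in genes numbered 20337015 in replicate 1, 6125999 in replicate 2 and 12151724 in replicate 3. Of 22310 gene symbols in the table, 14640 had a read in all 3 libraries and 4873 had none in any. A level is given as counts per 1000000 reads counted in genes (CPM), and ± stands for the SD over the 3 libraries (n = 3). At 3 counts, the limit used for a gene with no read, the level was 0.148, 0.490 and 0.247 CPM in replicates 1 to 3. Of the uniquely aligned reads, 35.2% to 38.3% fell in no counted gene feature. Whether these lay in introns or between genes was not tested. Only reads with a unique place were counted, and 1.76, 3.22 and 2.66 multiply aligned reads were recorded for each read counted in a gene. Genes with near-identical copies elsewhere in the genome therefore have uncertain, possibly low, values.

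Structural and translation genes took the most reads, and the first gene held only 0.662% of gene reads. Vim, the intermediate filament protein vimentin, ranked first with 5285, 8159.8 and 6419 CPM in replicates 1, 2 and 3, a mean of 6621 ± 1448 (n = 3). Counting error gave 95% Wilson intervals of 5254 to 5317, 8089 to 8231 and 6375 to 6464 CPM, which do not overlap, so the libraries differed by more than the reads counted allow. Eef2, elongation factor 2, followed with 5285, 6923 and 6326 CPM, and its mean of 6178 ± 829 lay closer to that of Vim than the SD of either gene. Ahnak, a giant scaffold protein, had 7066, 3868 and 4774 CPM and was highest in replicate 1. Ttn, the sarcomere's giant protein titin, stood at 7997, 4552 and 3144 CPM and held rank 1 in replicate 1, 5 in replicate 2 and 13 in replicate 3. Col1a2, a chain of type I collagen, was steadier at 5816, 4722 and 5062 CPM.

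The next 5 genes were Eef1a1 (elongation factor 1 alpha, 4667 ± 822 CPM), Flnc (the muscle filamin, 4568 ± 373), Col3a1 (type III collagen, 4295 ± 198), Igfbp5 (an insulin-like growth factor binding protein, 4134 ± 931) and Actb (cytoplasmic beta-actin, 3884 ± 354). Plec, the linker plectin, came just outside the first 10 at 3718 ± 507 CPM, and the means of Actb and Plec differed by less than the SD of either. Of the first 10 genes of each library, 6 were common to all 3, namely Vim, Eef2, Col1a2, Flnc, Col3a1 and Ahnak. At rank 100 stood Huwe1, a ubiquitin ligase (895 ± 235 CPM), and at rank 101 Lamc1, the laminin gamma-1 chain (889 ± 172 CPM), so the borders of the first 10 and the first 100 are not sharp.

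**Figure D1:**
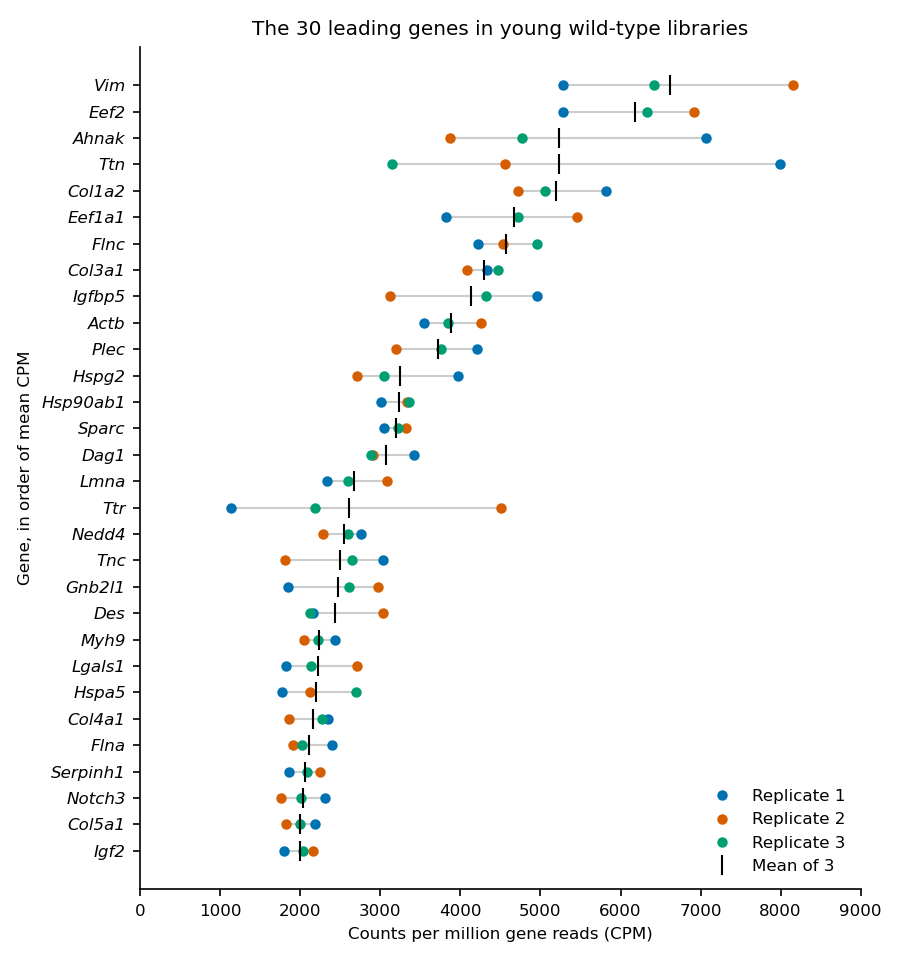
Levels of the 30 genes with the highest mean CPM, from Vim at the top to Igf2. The x axis gives CPM, coloured points are the 3 libraries and the black tick is their mean. Ttn, Ahnak and Ttr have the widest gaps between libraries, and Col3a1 and Hsp90ab1 lie close together.

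The reads were spread over many genes. The 10 leading genes held 5.23%, 4.97% and 4.80% of gene reads in replicates 1 to 3, a mean of 5.0 ± 0.22%. The first 30 held 10.1 ± 0.191%, the first 100 held 18.8%, the first 300 held 30.8% and the first 1000 held 51.2%. It took 942 genes to reach 50% of the reads, and 910, 950 and 938 when each library was ranked on its own. A mean of at least 1 CPM was reached by 12798 genes, at least 100 CPM by 2468 and at least 1000 CPM by 84. The median was 3.19 CPM over all symbols and 27.3 CPM over the genes of at least 1 CPM. Of the first 30 genes of each library 21 were common to all 3, and of the first 100 genes 82 were. Protein-coding genes held 99.1% of gene reads.

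**Figure D2:**
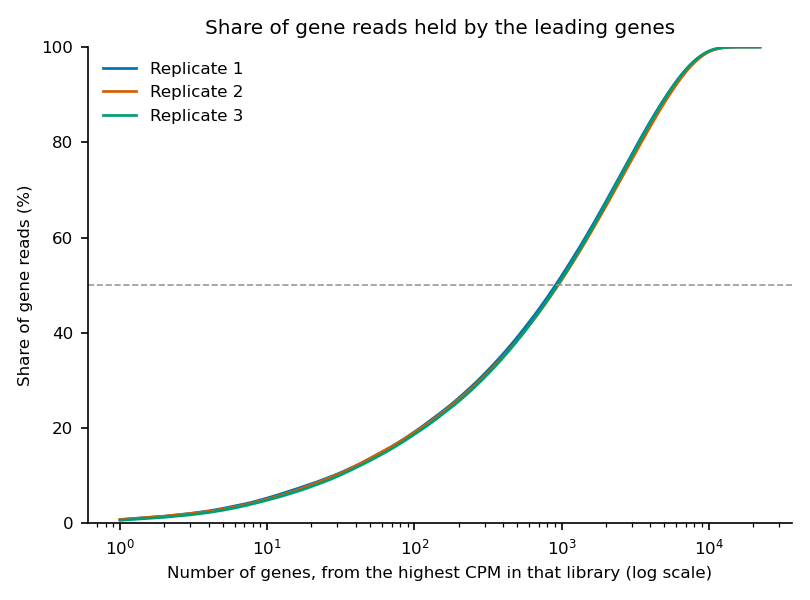
Share of gene reads held by the leading genes of each library. The x axis is the number of genes, from the highest CPM in that library, on a log scale, and the y axis is the summed share in percent. The 3 curves lie close together and cross the dashed 50% line at 910, 950 and 938 genes.

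Promoter sequences of 4 leading or muscle genes show the range among highly read genes: Vim and Eef2 as the first and second gene, Hspg2 (the basement membrane proteoglycan perlecan) as a matrix gene, and Acta1 (skeletal muscle alpha-actin) as a sarcomere gene. Each is the 250 bases before the annotated start, 5′ to 3′ on the gene's strand, from RefSeq on build GRCm38.p6. Capitals mark the motifs that were searched for on both strands. These were TATAAA (the core of a TATA box), the box with the letters CCAAT, the GC box with the letters GGGCGG, an E-box form that myogenic factors can bind, with the letters CAGCTG, and the CArG box that serum response factor binds.
Vim, chr2:13574061-13574310, plus strand: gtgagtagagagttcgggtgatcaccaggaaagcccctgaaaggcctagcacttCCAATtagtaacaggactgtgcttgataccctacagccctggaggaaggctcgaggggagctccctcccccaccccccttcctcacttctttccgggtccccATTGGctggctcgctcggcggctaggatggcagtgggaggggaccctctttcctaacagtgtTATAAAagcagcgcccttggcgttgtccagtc
Eef2, chr10:81176381-81176630, plus strand: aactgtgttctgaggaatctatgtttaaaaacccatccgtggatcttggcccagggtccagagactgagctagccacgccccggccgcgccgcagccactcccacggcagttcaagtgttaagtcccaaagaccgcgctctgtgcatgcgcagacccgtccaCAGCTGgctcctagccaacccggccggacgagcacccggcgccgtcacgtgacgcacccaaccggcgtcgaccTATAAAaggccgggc
Hspg2, chr4:137468553-137468802, plus strand: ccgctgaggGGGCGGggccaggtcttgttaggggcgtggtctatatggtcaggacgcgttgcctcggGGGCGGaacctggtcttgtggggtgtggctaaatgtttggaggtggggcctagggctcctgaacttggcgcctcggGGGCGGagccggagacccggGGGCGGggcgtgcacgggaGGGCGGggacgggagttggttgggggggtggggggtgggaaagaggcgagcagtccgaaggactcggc
Acta1, chr8:123894776-123895025, minus strand: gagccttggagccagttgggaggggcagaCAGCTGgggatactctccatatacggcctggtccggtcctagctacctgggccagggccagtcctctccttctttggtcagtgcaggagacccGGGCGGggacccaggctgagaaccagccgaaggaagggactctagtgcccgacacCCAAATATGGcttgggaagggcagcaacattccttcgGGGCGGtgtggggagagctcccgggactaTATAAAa

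In these windows the first base of TATAAA lay 32 bases before the start of Vim, 15 before that of Eef2 and 7 before that of Acta1. Hspg2 had no TATAAA and held GGGCGG 5 times. Vim had CCAAT 196 bases before its start and, on the other strand, 94 bases before it. Acta1 held CAGCTG 221 bases and a CArG box 73 bases before its start, and Eef2 held CAGCTG 88 bases before its start. RefSeq windows of 250 bases before to 50 bases after the start were found for 77 of the first 100 genes, 104 windows in all. Among these, the TATA box letters were present in 14.4%, the CCAAT box in 30.8%, the GC box in 66.3%, the E-box form in 12.5% and the CArG box in 2.88%. The shares over all 32851 windows of that length were 13.6%, 37.4%, 35.7%, 16.3% and 1.63%. Over the 9411 windows of genes of at least 10 CPM they were 7.15%, 37.3%, 66.1%, 14.9% and 1.49%. The leading genes' share of GGGCGG was thus near that of expressed genes at large. A match is a run of letters and was not tested as a binding site.

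Reads per gene grow with transcript length, so the order changed when counts were divided by exon length. Levels per length, scaled to a sum of 1000000 in each library (TPM), were computed for the 20579 symbols with a length of at least 200 bases. Vim stayed first at 9408 ± 1372 TPM, and the ribosomal stalk protein Rplp1, rank 47 by reads, came second at 9022 ± 1826 TPM with an exon length of 499 bases. Lgals1, the small secreted lectin galectin-1, ranked 3 at 8654 ± 1127 TPM. Eef1a1 (8122 ± 843), Ttr (transthyretin, 6717 ± 4027), Actb (6342 ± 125) and Eef2 (6257 ± 394) followed. Ranks 9 and 10 were held by Gnb2l1 (the ribosome scaffold also known as Rack1, 5315 ± 877) and Hsp90ab1 (a cytosolic chaperone, 4033 ± 148). Of the first 10 genes by reads, 4 were among the first 10 per length.

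The remaining 10 of the first 20 per length were led by Rpl8 (3994 ± 598 TPM), Anxa2 (annexin A2, 3805 ± 234), Sparc (a collagen-binding matrix glycoprotein, 3689 ± 112) and Rpl4 (3499 ± 353). Mt2, a metallothionein that binds zinc, ranked 183 by reads and 15 per length. Col1a2, Atp5b (the beta subunit of ATP synthase), Rplp0, Rps3 and Serpinh1 (the collagen chaperone Hsp47) held ranks 16 to 20, from 3079 ± 565 down to 2647 ± 57.05 TPM. Long genes went the other way. Ttn, at 113588 bases, fell from rank 4 to rank 1418 with 148 ± 80.8 TPM, Plec fell from 11 to 173, Hspg2 from 12 to 155 and Ahnak from 3 to 106. The first 30 by reads had a median exon length of 5456 bases, the first 30 per length 1666 bases and the genes of at least 1 CPM 3430.5 bases. The 2 orders shared 15 of their first 30 genes and 58 of their first 100.

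**Figure D3:**
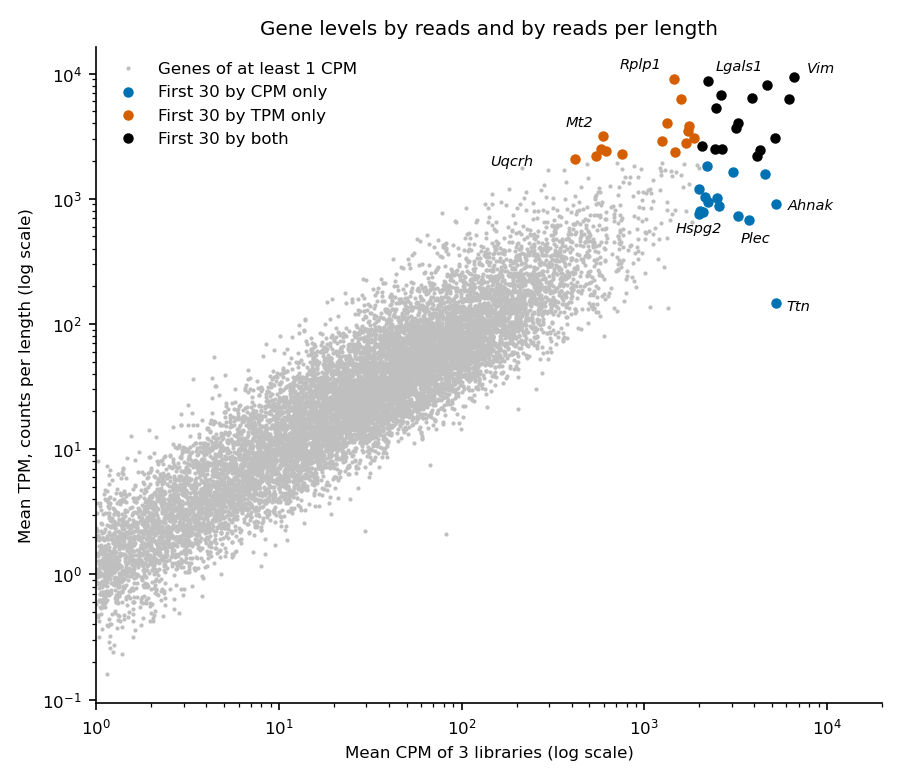
Mean CPM against mean TPM for the genes of at least 1 CPM, both axes on a log scale. Blue points are among the first 30 by CPM only, orange points by TPM only and black points by both, 15 genes. Ttn lies far below the other leading genes in TPM.

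Markers of satellite cells and myoblasts were read in every library, and their sum was nearly equal across the libraries. All 25 in the list had at least 1 CPM, 22 had at least 100 CPM and 9 were among the first 100 genes by reads. Their sum was 19330, 19189 and 19166 CPM in the 3 libraries, 1.92% of gene reads, and their median member stood at 432 CPM, against 3.19 CPM over all symbols. Single members varied more than the sum, with a median SD of 13.6% of the mean. Pax7, which defines the lineage, had 402, 388 and 342 CPM (rank 389). The Wilson intervals were 393 to 411, 373 to 404 and 332 to 352 CPM, so the first pair overlapped and replicate 3 was below both. Its relative Pax3 was far lower in reads at 1.88 ± 0.585 CPM. Among surface and adhesion markers, dystroglycan Dag1 had 3415, 2902 and 2886 CPM, the laminin-binding integrin Itga7 1578, 1638 and 1672 and M-cadherin Cdh15 1053, 1362 and 1247. Itga7 was nearly even across the libraries, while the muscle filament protein Des, at 2153, 3026 and 2117 CPM, was highest in replicate 2. Calcr, the calcitonin receptor known from resting satellite cells, stood at 34.4 ± 5.51 CPM, and Chrdl2, a BMP antagonist, at 16.6 ± 3.25 CPM.

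Regulators of the myogenic program spanned a wide range. Myf5 and Myod1, the factors of activated cells, had 273, 311 and 292 CPM and 124, 232 and 161 CPM. Myog, the factor of commitment to differentiation, had 767, 1096 and 759.8 CPM, rank 104 by reads and rank 37 per length. Replicate 2 was the highest for Myod1 and for Myog, and replicates 1 and 3 were nearly equal for Myog. Per length, Myog stood at 1826 ± 288 TPM against 203 ± 26.6 TPM for Pax7, 440.3 ± 4.74 for Myf5 and 287 ± 70.3 for Myod1. The repressor Msc (musculin) had 346 ± 99.01 CPM and Id3, an inhibitor of E-proteins, 334 ± 56.5 CPM. Myf6, the fourth myogenic factor, had 1.25 ± 0.775 CPM, and Mef2b was the lowest of the 21 regulators at 0.202 ± 0.122 CPM.

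Genes of differentiating myocytes were read in all libraries and differed more between them. All 29 had at least 10 CPM and 20 had at least 100 CPM, with sums of 15291, 13284 and 9745 CPM. Ttn was the largest part of that sum and, at 7997, 4552 and 3144 CPM, had the same library order. After it came Cdkn1c (the cell cycle inhibitor p57) at 1329, 1548 and 1522 CPM, Myog, and Myh3 (embryonic myosin heavy chain) at 618, 732 and 484 CPM. Of the leading members, the long genes Ttn and Neb were highest in replicate 1, and Cdkn1c, Myog, Myh3 and Acta1 in replicate 2. The order of the sums is therefore not that of most leading members. The fusion genes Tmem8c (myomaker) and Gm7325 (myomixer) had 116 ± 24.7 and 49.1 ± 10.1 CPM. Of 20 markers of mature fibres all had at least 1 CPM and 9 had at least 100 CPM, with sums of 2971, 3875 and 2551 CPM, highest in replicate 2. They were led by Acta1 (491, 779.6 and 422 CPM), Actn3 (fast alpha-actinin, 540, 639.6 and 511), Ryr1 (the calcium release channel, 581, 449.7 and 445) and Atp2a1 (the calcium pump of the reticulum, 503, 501 and 387). The adult myosins Myh4, Myh1, Myh7 and Myh2 were at 36.6 ± 19.01, 31.2 ± 4.47, 2.81 ± 0.412 and 1.27 ± 0.35 CPM. Whether these reads came from satellite cells, new myocytes or fibre debris was not tested. In RNA from a bulk fraction, fewer cells of a type and less RNA per cell cannot be told apart.

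Cytoskeletal genes had the largest summed CPM of all lists, while per length their sum of 37325 ± 1648 TPM was below the 53777 ± 8496 TPM of the cytosolic ribosomal proteins. The lists differ in size and were chosen with earlier results of these data known, so their order is a description. The 49 genes of motors, linkers and filaments held 5.14% of gene reads (53401, 51231 and 49460 CPM), 41 of them had at least 100 CPM and 16 were among the first 100. Besides Vim, Ahnak, Flnc, Plec and Des, the first 30 included Lmna (the nuclear lamin A, 2671 ± 381 CPM), Myh9 (nonmuscle myosin, 2233 ± 192) and Flna (filamin A, 2104 ± 257). Nes, the progenitor filament nestin, was at 1140.4, 1144 and 1142 CPM. Among the actins, Actb took 3549, 4254 and 3848 CPM, the smooth muscle actin Acta2 1167, 1463 and 1126, the cardiac actin Actc1 442, 549.6 and 325 and the cytoplasmic gamma-actin Actg1 only 10.9, 13.2 and 15.96 CPM. Actg1 has many processed copies in the genome, as does the glycolytic enzyme Gapdh, which stood at 5.28 ± 0.919 CPM. The part of multiple alignment in these low values was not tested.

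Collagens had the next largest summed CPM. Per length their sum was 12640 ± 2129 TPM, below the ribosomal protein, cytoskeletal, respiratory chain, translation factor, chaperone, histone and satellite cell lists. Of 43 collagen chains, 41 had at least 1 CPM and 10 were among the first 100 genes, and the family held 2.41% of gene reads with sums of 26661, 21767 and 23821 CPM. The leading chains were Col1a2, Col3a1 with 4326, 4083 and 4475 CPM, and then the basement membrane chain Col4a1, whose values are given with the basement membrane genes. Of further fibrillar chains, Col5a1 had 2179, 1820.1 and 2001 and Col1a1 1786, 1310.3 and 1143. The median collagen chain stood at only 25.01 CPM, so a few chains carried the sum. The reads of the 2 type I chains were unequal, and per length Col1a2 stood at 3079 ± 565 TPM and Col1a1 at 757 ± 231 TPM. The 3 libraries gave 3694, 2585 and 2957 TPM for Col1a2 and 1023, 647 and 602 TPM for Col1a1, which do not overlap.

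Basement membrane genes, which build the sheet that covers satellite cells, had sums of 14692, 10409 and 12289 CPM over 26 members. Hspg2 led with 3975, 2711 and 3041 CPM, then the type IV collagen chains Col4a1 (2349.7, 1857 and 2271) and Col4a2 (1583, 1142 and 1435) and the type XVIII chain Col18a1 (1275, 1045 and 1022). Of the laminin chains, Lamc1, Lama5, Lama2 and Lamb1 had 889 ± 172, 856 ± 167, 808 ± 249.8 and 729.8 ± 121 CPM, and Lama1 had 0.60 ± 0.309. Replicate 1 was highest for 15 of the 25 members of at least 1 CPM. Other matrix glycoproteins and proteoglycans summed to 16080, 12539 and 13663 CPM over 33 genes, all with at least 1 CPM. Sparc was even at 3041, 3321 and 3221 CPM, and Tnc (tenascin C, made in regenerating muscle) varied more at 3028, 1807 and 2648. Postn (periostin) had 2196, 1823 and 1820 CPM and Bgn (biglycan) 1538, 1224 and 1128. Fn1, fibronectin, had 1604, 654 and 658 CPM, with replicate 1 above the other libraries.

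Proteases and their inhibitors summed to 9156, 8476 and 8959 CPM over 30 genes, 27 of them with at least 1 CPM. Serpinh1 led at 2062 ± 195 CPM, followed by Timp3 (a metalloprotease inhibitor, 976 ± 304) and Adamts4 (a proteoglycan-cleaving protease, 829 ± 134). Adamts10 had no read, which allows up to the level of 3 counts given above.

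The translation machinery was prominent on both scales. The 22 translation factors summed to 16070, 19767 and 18652 CPM, of which Eef2 and Eef1a1 made up most. Eif4g2 and Eif4g1, scaffolds of initiation, had 1199 ± 129 and 1058 ± 60.3 CPM. The 86 cytosolic ribosomal protein genes summed to 13196, 20877 and 18161 CPM, lowest in replicate 1, and to 53777 ± 8496 TPM per length. Only 6 of them were among the first 100 by reads, against 14 among the first 100 per length. Rpl4 (1400.3, 1962 and 1807 CPM), Rps3 (1243, 2109 and 1734) and Rplp1 (1039.8, 1824 and 1483) were among the leading members. Replicate 2 was the highest and replicate 1 the lowest for 56 of the 81 members of at least 1 CPM. Ribosomes hold most of these proteins in fixed proportions, yet 25 members were under 10 CPM, and Rps27, Rpl26 and Rpl10l had no read. Their genes have many pseudogenes, and the part of multiple alignment was not tested.

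Chaperones summed to 13843, 16256 and 16909 CPM over 27 genes, 24 of them with at least 100 CPM. Hsp90ab1 (3010.4, 3335 and 3361 CPM) led, and the chaperones of the secretory path followed with Hspa5 (BiP, 1774, 2115 and 2694), Calr (calreticulin, 1094, 1312 and 1268) and Hsp90b1 (1045, 985 and 1187). Hspa5 was highest in replicate 3. Among 84 nuclear-encoded respiratory chain genes 79 had at least 1 CPM, and their sums of 8721, 12762 and 10964 CPM had the same library order as the ribosomal proteins. Atp5b (1879 ± 288 CPM) and Atp5a1 (1414 ± 237), the catalytic core of ATP synthase, led, followed by Cox4i1 (542 ± 129). Glycolytic enzymes summed to 3124, 4119.7 and 3662 CPM over 21 genes, led by Pkm2 (pyruvate kinase, 869 ± 153 CPM), Aldoa (aldolase A, 739 ± 143), Hk2 (hexokinase 2, 405 ± 90.04) and Ldha (lactate dehydrogenase A, 326 ± 56.2).

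The 32 growth factor receptors and ligands summed to 14319, 11718 and 13410 CPM. Igfbp5 led with 4959, 3125 and 4319 CPM and was lowest in replicate 2. The ligand Igf2 had 1792, 2154 and 2035 CPM and its scavenger receptor Igf2r 1978, 1559.7 and 1899 CPM. The signalling receptor Igf1r stood at 304 ± 56.1 CPM and the ligand Igf1 at 54.4 ± 19.9 CPM. Fgfr1 and Fgfr4, receptors of fibroblast growth factors, had 742 ± 41.8 and 487 ± 12.4 CPM. Of the 32 growth factor genes 31 had at least 1 CPM, and the exception was myostatin, Mstn, at 0.0708 ± 0.0837 CPM. Receptors of the Notch pathway, which holds satellite cells undifferentiated, were led by Notch3 (2313, 1763 and 2008 CPM, rank 28), then Notch2 (962, 707 and 737) and Notch1 (611, 500.2 and 474). The target Heyl had 509, 517 and 452 CPM, and the ligands Jag1 and Dll1 had 144 ± 34.8 and 73.1 ± 12.3 CPM. Nedd4, a ubiquitin ligase, was also among the first 30 genes at 2759.5, 2287 and 2598 CPM.

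Imprinted genes, expressed from 1 parental allele, placed 6 of 27 among the first 100 genes by reads and summed to 12008, 10420 and 10897 CPM. They were Igf2, Igf2r, Mest (1943, 1556 and 1459 CPM), Cdkn1c, Peg3 (1660, 1085 and 1221 CPM) and the adaptor Grb10 (1498, 1141 and 1327 CPM). The other end of the list held Dlk1 at 0.35 ± 0.169 CPM, Phlda2 at 0.0328 ± 0.0568 CPM and Magel2 with no read. So the imprinted genes spanned nearly the whole range of levels. The list was drawn up with the leading genes known, so its place near the top is a description.

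Immediate early genes, which respond within minutes to stimuli, all had at least 10 CPM and 21 of 25 had at least 100 CPM. Their sums were 8656, 10032 and 7601 CPM, highest in replicate 2. Fosl2 (872, 775 and 784 CPM), Klf6 (775, 776 and 734) and Junb (641, 902 and 625) led, and Fos had 677, 978 and 500.1 CPM, 1.96-fold apart between its lowest and highest library. Proliferation genes were present at moderate levels. Of 40 genes of DNA replication and mitosis 39 had at least 1 CPM, 6 had at least 100 CPM and none was among the first 100, with sums of 2971, 3130.3 and 2833 CPM. Top2a, the topoisomerase of dividing cells, had 339, 369 and 348 CPM and Mki67, the proliferation antigen Ki-67, 397, 284 and 221 CPM. Tyms, thymidylate synthase, had no read, and the part of multiple alignment in this was not tested. Cyclins, their kinases and inhibitors summed to 2732, 3038 and 2948 CPM, led by the inhibitor Cdkn1c, Cdk4 (267 ± 18.9 CPM) and Cdkn1a (p21, 171 ± 23.7).

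The listed noncoding RNAs that were in the table took few reads, as did histone genes, whose share was larger per length. Of 42 long noncoding RNAs listed, 26 were in the table, with sums of 2215, 1898 and 2004 CPM. Xist, the RNA of X inactivation, had 1105, 507 and 518 CPM, and Gas5, a host of small nucleolar RNAs, 281, 411 and 423 CPM. Malat1, Neat1 and H19 were not among those 26 and were not analysed here. The sums leave them out and do not give the share of all noncoding RNA in the libraries. Histone genes summed to 3111, 5165 and 3705 CPM over 77 members and to 16321 ± 3510.5 TPM per length. By reads they were led by H3f3b (266 ± 39.00 CPM) and Hist1h4d (258 ± 75.9). Many histone transcripts lack a poly(A) tail, and a total RNA library can hold them. Hoxa9, the gene deleted in the knockout groups of the series, was present in all 3 libraries at 8.06, 12.1 and 11.8 CPM.

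Summed levels of markers of other cell types ranged from under 2 CPM for lymphocytes to over 10000 CPM for the fibroblast list. None of 12 lymphocyte markers reached 1 CPM, with sums of 1.18, 1.96 and 1.73 CPM, and Cd3e, Cd3g, Ms4a1, Nkg7 and Ncr1 had no read. Neutrophil markers summed to 9.74, 13.1 and 13.5 CPM, with 4 of 11 at 1 CPM or more. Macrophage markers summed to 68.2, 92.1 and 44.9 CPM over 24 genes, led by Lyz2 (12.4, 13.7 and 8.31 CPM), while the pan-leukocyte gene Ptprc stood at 0.83 ± 0.221 CPM. Endothelial markers summed to 111, 101 and 87.3 CPM over 16 genes, 3 of them with at least 10 CPM. Tek (an angiopoietin receptor) led with 30.4 ± 4.35 CPM, then Eng (endoglin) with 24.6 ± 7.12 and Esam (an adhesion molecule) with 10.7 ± 3.2, while Pecam1 stood at 2.1 ± 1.6 and Cdh5 at 3.22 ± 0.903 CPM. Of the lymphocyte, neutrophil, macrophage and endothelial sums the endothelial one was the largest by reads, at 0.00998% of gene reads. Per length the macrophage sum was the largest, at 139.6 ± 46.3 TPM against 101.7 ± 19.3 TPM for the endothelial one. Erythroid markers summed to 124, 278 and 235 CPM, most of it Hbb-b1 (beta-globin) at 97.6, 225 and 189 CPM. The alpha-globin genes Hba-a1 and Hba-a2 had no read, and the part of multiple alignment in this was not tested. Schwann cell markers summed to 517, 667 and 663 CPM, and tendon markers to 343, 212 and 167 CPM, highest in replicate 1.

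The fibroblast and fibro-adipogenic list was uneven. Its sum of 14141, 12066 and 12858 CPM over 20 genes came mostly from Col1a2, Col3a1 and Col1a1. Of the 20 genes 13 had at least 10 CPM and 7 at least 100 CPM, among them Gsn (gelsolin, 678 ± 98.6 CPM), Fbn1 (fibrillin 1, 633 ± 187) and the transcription factor Tcf4 (309 ± 53.5). At the low end were the surface markers Pdgfra (4.54 ± 0.842 CPM) and Ly6a (1.91 ± 0.572), and Pi16 (0.584 ± 0.313) and Clec3b (0.306 ± 0.197). Dcn, decorin, was at 39.6 ± 2.21 CPM. The pericyte and smooth muscle list summed to 5009, 4387 and 4118 CPM over 14 genes, led by Notch3, which the satellite cell list also holds, and by Acta2. Rgs5, a pericyte marker, had 363, 226 and 147 CPM, highest in replicate 1 and lowest in replicate 3, and Pdgfrb stood at 135 ± 48.1 CPM. How much of these reads came from other cells was not tested.

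Genes known from the choroid plexus of the brain were read in every library. All 12 in the list had at least 1 CPM, with sums of 1647, 6497 and 3111 CPM, and all 12 were highest in replicate 2 and lowest in replicate 1. Ttr, the thyroxine carrier, had 1136, 4511 and 2187 CPM, Enpp2 (autotaxin) 411, 1647 and 762, Kl (klotho) 25.9, 86.8 and 40.9 and Clic6 13.3, 64.3 and 26.3 CPM. The order was the same for Otx2, a homeobox factor, at 2.8, 10.8 and 6.17 CPM. This order is the reverse of that of total gene reads, which were fewest in replicate 2. Raw counts were closer together, with 23099, 27636 and 26574 reads for Ttr and 8361, 10091 and 9263 for Enpp2. Kl had 526, 532 and 497 reads and Clic6 270, 394 and 320. The part of library depth in the CPM differences was not tested. The hindlimb holds no choroid plexus, and the source of these reads was not tested. Since the list was written with earlier results of these libraries known, it is no independent evidence. Ttr held rank 17 by reads and rank 5 per length, with an SD of 66.1% of its mean CPM.

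**Figure D4:**
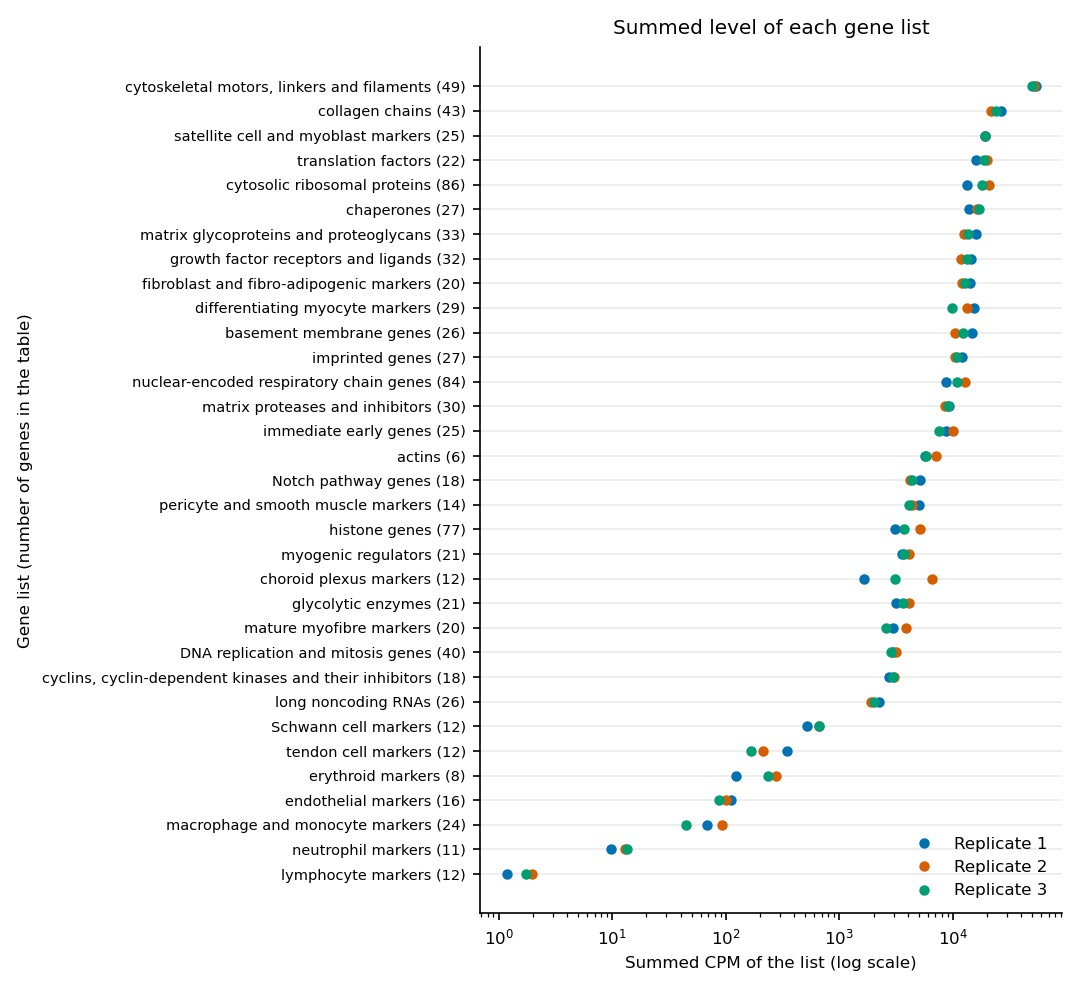
Summed CPM of each gene list in the 3 libraries, on a log scale, with the number of genes in the table in brackets. Cytoskeletal genes, collagens and satellite cell markers lie near the top and lymphocyte, neutrophil and macrophage markers at the bottom. Choroid plexus markers show the widest gap between libraries among the lists above 1000 CPM.

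Spread between the libraries was modest for most leading genes. Among the first 300 genes the SD was a median of 12.9% of the mean, 105 genes were under 10% and 16 over 30%. Counting error alone would give a median of 1.19% there. Over genes of at least 10 CPM the median was 12.5% against 4.50% from counting. The coefficient of variation that edgeR estimated over 12357 genes was 16.7%. Steadiest among the first 300 were Nes (0.17% SD over mean), Caprin1 (0.312%, an RNA-binding protein), Mtap7d1 (1.08%), Gpc1 (glypican 1, 1.24%) and Zswim4 (1.59%). The values of Nes, Caprin1 and Mtap7d1 lay below the median counting error of 1.19%, so their order is not resolved. Most variable were Lars2 (the mitochondrial leucyl-tRNA synthetase) at 68.4%, with 258, 1095 and 523 CPM, Enpp2 at 67.7%, Ttr at 66.1% and Fn1 at 56.3%. They were followed by Xist at 48.2%, Ttn at 47.7%, Col6a3 (a type VI collagen chain) at 44.8% and Neb (the thin filament ruler nebulin) at 43.2%. The raw counts of Lars2 were closer together than its CPM, at 5256, 6709 and 6354 reads, as were those of Ttr and Enpp2 given above.

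The libraries also differed along gene length. Over 9015 genes of at least 10 CPM with a length, the log2 ratio of replicate 1 to replicate 2 had a Spearman correlation with length of 0.627, and its median went from -0.39 in the shortest of 5 nearly equal length classes to 0.31 in the longest. The correlation was 0.463 for replicate 1 over 3 and 0.362 for replicate 3 over 2. All genes of a pair share their libraries, so these are descriptions. Among the first 300 genes, the 123 that were highest in replicate 1 had a median length of 8016 bases and the 107 highest in replicate 2 had 2565 bases. Of the 16 genes over 30%, 11 were highest in replicate 1 (Ahnak, Ttn, Dst, Macf1, Timp3, Fn1, Lama2, Xist, Col6a3, Neb and Tanc2) and 5 in replicate 2 (Ttr, Enpp2, Fos, Lars2 and Acta1).

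With the length trend of each library removed, the median SD over mean of the first 300 genes was 7.93% and 5 genes stayed over 30%: Lars2 (68.0%), Enpp2 (65.9%), Ttr (53.4%), Fn1 (44.8%) and Col6a3 (31.0%). Long genes such as Ttn, Neb and Xist were no longer among them. The steadiest genes by CPM changed as well. Nes went to 6.42%, Caprin1 to 6.52%, Zswim4 to 3.20%, Mtap7d1 to 2.15% and Gpc1 to 0.749%. Eif4g2 then had the lowest value, 0.215%, which is also below the median counting error of 1.19%. The evenness of Nes and Caprin1 thus held only with the length trend left in. Whether RNA quality differed between the libraries was not tested. Over all genes, levels in 2 libraries had Spearman correlations of 0.974 to 0.981.

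**Figure D5:**
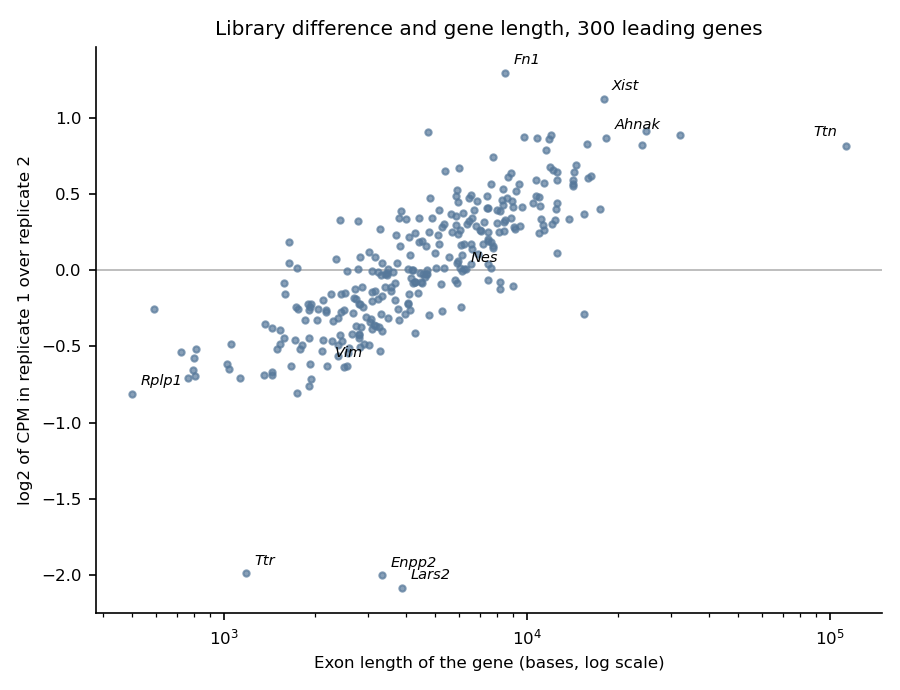
Log2 ratio of CPM in replicate 1 to replicate 2 against exon length for the first 300 genes, with length on a log scale and each point 1 gene. Long genes such as Ttn and Ahnak lie above 0 and short genes such as Rplp1 below. Ttr, Enpp2 and Lars2 lie far below the trend.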

How the data were processed

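RNA sequencing was done on 3 libraries of young wild-type satellite cells. The authors deposited whole-number counts per gene symbol, without normalization. TopHat, HTSeq, DESeq2 and genome build mm9 are named, per the submitters' processing notes; versions and counting by strand are not given in the sources used here, so overlapping and antisense genes are uncertain. Summary lines that name no gene were kept out of the totals. Reads in no counted feature were 35.2% to 38.3% and ambiguous reads 1.27% to 1.34% of uniquely aligned reads. Gene counts were divided by their total (6125999 to 20337015 reads) to give CPM. TPM used exon lengths from the GENCODE M21 annotation, another build, matched to 92.3% of symbols and 99.4% of counts, for genes of at least 200 bases. Python 3.11.15, pandas 2.3.3, scipy 1.17.1, R 4.3.3 and edgeR 4.0.16 (TMM factors, filterByExpr, 1 mean over the 3 libraries) were used, with DESeq2 1.42.0 size factors as an alternative. Intervals are 95% Wilson intervals and, like the limit at 3 counts, cover counting error only.

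No test was made. The calculations were tested on simulated data. Named genes are the first 30 by CPM, the first 20 by TPM, the 4 leading genes of each of 37 lists with any member needed to account for a list, the 8 most and 5 least variable of the first 300, and the genes beside ranks 10 and 100. A few genes that this rule names are not reported here. The members and lists were chosen with earlier results of these data known. Of the lists, 35 had a member in the table; small nucleolar and microRNA entries (3 symbols) had no read, and small structural RNAs and mitochondrially encoded genes were not analysed here. Alternatives changed the scaling, the average, the filter, the denominator and the length treatment, or left out each library.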

Additional observations from a re-analysis of the deposited data

How the results depend on the processing

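The share of gene reads in the first 10 genes was 5.0%, 3.16% with reads in no counted feature in the total and 7.01% per length. Per length, 4 of the first 10 genes were still among the first 10 and 17 of 33 lists kept their summed level within 1.5-fold. With reads in no counted feature in the total, which enlarges every denominator, 0 of 33 lists did. The edgeR coefficient of variation of 16.7% was 17.5% without a filter and 16.8% with library size alone, and leaving out 1 library gave 14.3% (without replicate 1) to 19.8% (without replicate 3). The median SD over mean of genes of at least 10 CPM with a length was 12.5%, and 10.1% with the length trend removed, an alternative chosen after seeing the data. With 1 library left out, the share of the first 10 genes was 4.89% to 5.10% and 930 to 948 genes held 50% of reads. Of the first 100 genes, 82 to 91 were then common to the remaining libraries. That count could not fall below 82, since any pair shares at least the genes common to all 3. TMM or DESeq2 scaling moved none of 141 single levels and none of 33 list sums by more than the spread between libraries. By the same measure, counts per length moved 113 of 139 levels and 26 of 33 sums. Reads in no counted feature, when added to the total, moved 121 of 141 and 30 of 33. The filter at 10 counts moved 1 of 136 and 2 of 33. The median over libraries moved 0 of 141 levels and 2 of 33 sums. Its result for single levels was fixed in advance, since the median of 3 values always lies within 1 SD of their mean. Depth limits low genes most, since the smallest library had 6125999 gene reads. No paired analysis was possible because the result comes from no test and only 1 group was used.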
